A study of Mus musculus with 18 samples.

Results

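Lysosomal enzymes and membrane proteins were followed through neutrophil differentiation in 37 genes of the 34896 in the expression table. The genes were taken by name and by no rule on their values, but with earlier results of these data known. They were 8 proteases, 6 glycosidases, 8 genes of lipid handling and related soluble proteins, and 7 membrane proteins. The others were 6 genes of the vacuolar proton pump (V-ATPase) and the transcription factors Tfeb and Tfe3. All 37 were found, and all 37 had at least 1 TPM (a level corrected for transcript length and scaled so that every library sums to 1000000) in at least 3 libraries, as did 13061 genes of the table.

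The study asked how GFI1, a repressor that is needed to make neutrophils, and CHD4, the ATPase of the NuRD remodelling complex, act on chromatin in granulocyte-monocyte progenitors (GMPs) and what becomes of their sites later. Cells were sorted from the bone marrow of C57BL/6 mice that were adult (6 to 12 weeks). RNA-seq covered wild-type GMPs, pre-neutrophils (preNeu) and mature neutrophils (matNeu) with 3 libraries each, and the ChIP-seq lists used here had 1 library each: CHD4 in wild-type (WT) and Gfi1-/- GMPs, and H3K4me2, a histone mark of active and poised regulatory DNA, in the 3 wild-type stages. No treatment is named for any group, and no RNA-seq of Gfi1-/- cells was analysed here. Groups follow the sample titles, because the cell type tag differed from the title in 13 of 18 samples. The markers went with the titles: Mpo, of the primary granules, stood at 31476 to 33396 TPM in the libraries titled GMP and at no more than 5938 elsewhere, Ngp, of the secondary granules, at 57803 to 82697 TPM in preNeu and at no more than 3245 elsewhere, and the chemokine receptor Cxcr2 at 3027 to 3976 TPM in matNeu and at no more than 93.4 elsewhere. Nothing in the labels says that libraries of a stage came from different mice, so p-values measure the spread between these libraries, which may be technical.

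Lysosomes are acidic compartments that degrade proteins, sugar chains and lipids taken up or recycled by the cell. The V-ATPase pumps in the protons, membrane glycoproteins such as LAMP1 and LAMP2 line the wall, and soluble hydrolases are carried in from the Golgi, many of them by mannose 6-phosphate receptors. TFEB and TFE3 bind the E-box core CACGTG, and many lysosomal genes carry it, often within the longer palindrome TCACGTGA, close to their start. In neutrophils, primary granules are related to lysosomes and share some of their enzymes and membrane proteins.

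The E-box was looked for in reference promoters of 300 bases, from 250 before to 50 after the start, as RefSeq gives them for GRCm38.p6. A promoter was found for 31 of the 37 genes. CACGTG, which reads the same on both strands, lay in the promoter of 10 of these 31 genes (32.3%), compared with 11.8% of the 9333 tested genes with a promoter and 8.09% of all 27025 genes. TCACGTGA, which contains it, lay in 6 of 31 (19.4%), compared with 2.21% and 1.13%. Counted by promoter, 10 of 38 held CACGTG (26.3%), as did 7.15% of all 32851 promoters. Of the 67 other lysosomal genes with a promoter, 31.3% held CACGTG and 10.4% the longer word. A match is a description of the letters and no evidence of binding. The 30 bases around the core in the 10 genes are shown because they place genes whose transcripts moved in different directions side by side; CACGTG is in capitals, and the letters run 5′ to 3′ on the strand of the gene.
Atp6v0d1: ccctactgcggtCACGTGagacgcggtgcg
Atp6v1a: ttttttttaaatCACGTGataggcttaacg
Ctsa: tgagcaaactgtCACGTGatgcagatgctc
Ctsd: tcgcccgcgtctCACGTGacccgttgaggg
Ctsl: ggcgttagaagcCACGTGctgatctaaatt
Gla: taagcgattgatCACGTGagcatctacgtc
Lamp1: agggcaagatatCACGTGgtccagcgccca
Mcoln1: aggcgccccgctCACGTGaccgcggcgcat
Naglu: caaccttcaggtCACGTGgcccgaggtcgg
Plbd1: gggcgaaggttggttcccaaggcCACGTGa
The longer palindrome was present in Atp6v0d1, Atp6v1a, Ctsa, Ctsd, Gla and Mcoln1. In Ctsa it lay at the second of 2 annotated starts, and Lamp1 held 4 copies of CACGTG. Neither Tfeb nor Tfe3 held the core in the windows searched.

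The promoters of Ctsd and Mcoln1 are printed whole because both hold CACGTG in 2 places and the longer palindrome in 1, while their transcripts changed by different amounts. They lie at chr7:142387778-142388077 (minus strand) and chr8:3500269-3500568 (plus strand) of GRCm38.p6, with CACGTG in capitals.
Ctsd: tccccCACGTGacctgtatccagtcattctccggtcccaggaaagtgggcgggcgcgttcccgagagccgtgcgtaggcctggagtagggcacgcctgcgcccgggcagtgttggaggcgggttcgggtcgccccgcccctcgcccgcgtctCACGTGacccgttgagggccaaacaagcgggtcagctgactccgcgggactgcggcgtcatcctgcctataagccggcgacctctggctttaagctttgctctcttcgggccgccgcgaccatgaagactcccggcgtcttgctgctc
Mcoln1: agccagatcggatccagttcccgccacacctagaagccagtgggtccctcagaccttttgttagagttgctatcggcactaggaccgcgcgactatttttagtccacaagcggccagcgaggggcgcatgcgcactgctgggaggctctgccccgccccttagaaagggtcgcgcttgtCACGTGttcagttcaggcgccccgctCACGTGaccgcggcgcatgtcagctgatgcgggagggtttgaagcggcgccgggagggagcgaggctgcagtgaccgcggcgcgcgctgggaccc

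The 37 genes together took 9344 ± 349.8 TPM (SD, n = 3) in GMPs, 9284 ± 434.2 in preNeu and 16920 ± 770.3 in matNeu. This was 0.894 to 0.957% of the library in GMPs, 0.892 to 0.976% in preNeu, and for matNeu 1.62 to 1.78%, with no overlap between matNeu and the earlier stages. A large part of the matNeu total was the aspartic protease Ctsd, which made up 24.5 to 27.0% of it and 4.88 to 6.48% at the earlier stages. Without Ctsd the sum was 8421 to 9055 TPM in GMPs, 8467 to 9130 in preNeu and, in matNeu, 12253 to 13329. Without Ctsd, Psap and Plbd1 it was 7686 to 8256, 7075 to 7576 and 9289 to 10089 TPM, so that the matNeu libraries still did not overlap with the others. The other lysosomal genes of a wider list of 89 summed to 6992 to 7226 TPM in GMPs, 5635 to 6004 in preNeu and, in matNeu, 6924 to 7136. In sorted populations, fewer cells of a type and less RNA per cell cannot be told apart.

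**Figure D1:**
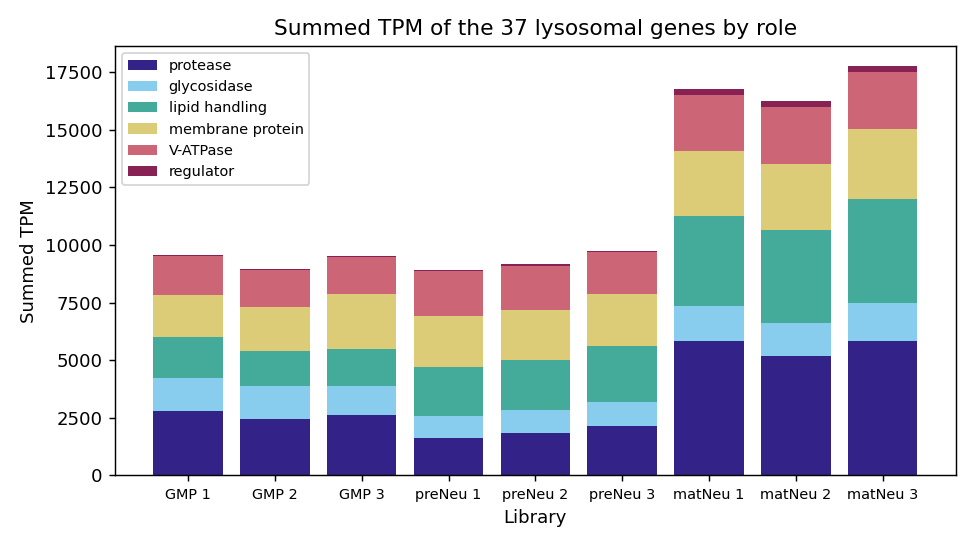
Summed TPM of the 37 lysosomal genes in each of the 9 libraries, stacked by role. The 3 matNeu libraries reach 16238 to 17757 TPM and the 6 earlier ones 8917 to 9763, and the protease share (dark blue) is the part that grows most in TPM. Ctsd alone makes 3975 to 4524 of the 5177 to 5855 TPM of proteases in matNeu, and 465 to 543 of 2454 to 2779 in GMPs. The other proteases together are lower in matNeu than in GMPs.

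Changes were tested with limma on log2(TPM + 1), and p-values were adjusted over all 13061 genes by Benjamini and Hochberg, with a call at 0.05. Between matNeu and GMPs, 17 of the 37 genes were called higher, 8 lower and 12 not called. Of all tested genes, 22.8% were called higher and 54.1% lower. The median log2 change of the 37 genes was 0.29, beside -0.92 over all tested genes. Between preNeu and GMPs, 10 were higher and 17 lower, when 14.7% of all tested genes were higher and 44.3% lower, and the medians were -0.30 and -0.52. Between matNeu and preNeu, 20 were higher and 7 lower, when 22.9% of all tested genes were higher and 39.8% lower, and the medians were 0.41 and -0.32. The 3 comparisons share libraries and are not independent of each other.

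The direction of small changes depended on the scale. The share of TPM taken by the 10 most abundant genes was 9.15 to 9.78% for GMPs, 24.1 to 28.3% for preNeu and 12.7 to 15.9% for matNeu. With TPM divided by median-of-ratios size factors, the medians of all genes came to -0.11, -0.08 and 0 in the 3 comparisons in the same order. The 37 genes were then called higher in 29, 16 and 25 cases and lower in 4, 11 and 5. Of all tested genes, 36.1, 23.5 and 31.9% were then called higher and 40.3, 27.6 and 32.3% lower. The share of all calls that were higher went from 29.6 to 47.2%, from 25.0 to 46.0% and from 36.5 to 49.7%. The calls and directions that depended on this scale are given with each gene.

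**Figure D2:**
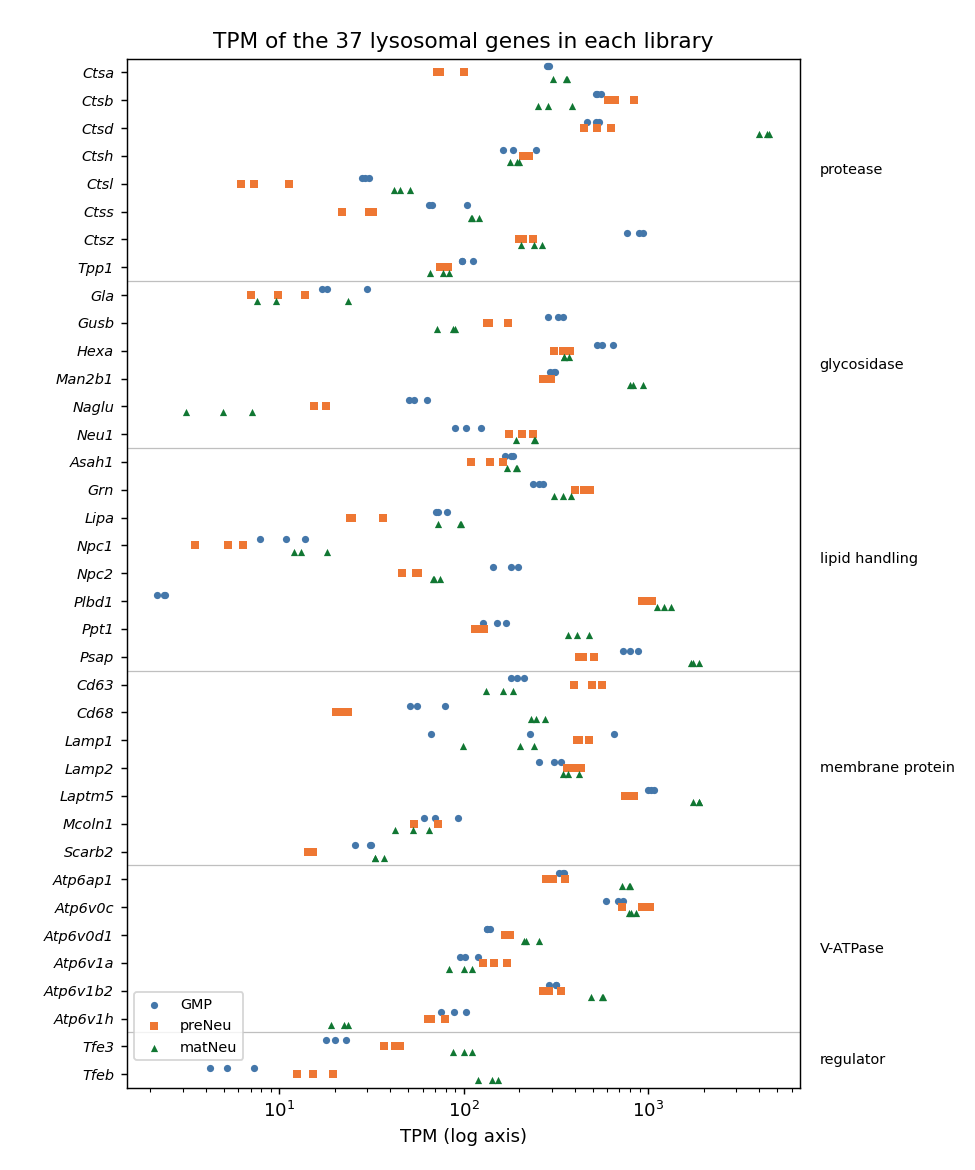
TPM of each of the 37 genes (log axis) in the GMP (circles), preNeu (squares) and matNeu (triangles) libraries, 1 mark per library, in order of role. Ctsd, Cd68 and Tfeb stand apart in matNeu, Plbd1 is at 2.18 to 2.41 TPM in GMPs and at 931 to 1339 TPM later, and the GMP marks of Lamp1 are spread from 66.9 to 652 TPM.

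Of the 8 proteases, 0 were called higher in preNeu than in GMPs and 5 lower, while 4 were higher and 1 lower in matNeu than in preNeu. Against GMPs, matNeu had 3 higher and 3 lower. With median-of-ratios scaling these counts were 3 and 4, 6 and 1, and 6 and 1. The shares of all tested genes were 14.7% higher and 44.3% lower from GMPs to preNeu. They were 22.9% and 39.8% from preNeu to matNeu, and 22.8% and 54.1% from GMPs to matNeu. With that scaling they were 23.5% and 27.6%, 31.9% and 32.3%, and 36.1% and 40.3%. Ctsd (chr7:142375911-142388038), the aspartic protease cathepsin D, read 543, 520 and 465 TPM in GMPs, 450, 529 and 633 in preNeu, and 4524, 3975 and 4428 in matNeu. GMPs and preNeu overlapped, and each matNeu library was far above both. The log2 change from preNeu to matNeu was 3.01 ± 0.13 (SE, adjusted p = 1.39e-08). From GMPs to preNeu it was 0.07 and not called, but 0.60 and called higher with median-of-ratios scaling (adjusted p = 0.00114). A readthrough gene, Gm49369, shares exons and strand with Ctsd; it was listed at 0 TPM in the 6 earlier libraries and at 9.46, 0 and 574 TPM in matNeu.

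The carboxypeptidase Ctsa, which also protects the sialidase NEU1, read 286, 285 and 292 TPM in GMPs, 74.4, 71.8 and 101 in preNeu and 365, 306 and 359 in matNeu. It was thus lowest in preNeu, with a change of -1.81 ± 0.14 from GMPs (adjusted p = 2.89e-06) and 2.06 ± 0.14 from preNeu to matNeu (3.96e-07). From GMPs to matNeu it was 0.25 and not called, but 1.25 and called under the other scaling (adjusted p = 5.67e-06). The cysteine protease Ctsl read 30.7, 29.1 and 28.0 TPM in GMPs, 6.19, 11.3 and 7.27 in preNeu and 45.2, 51.0 and 42.0 in matNeu. No 2 stages overlapped, and the changes were -1.75 ± 0.21 (adjusted p = 5.39e-05) and 2.38 ± 0.21 (2.93e-06). Ctss, a cysteine protease of antigen processing, had its lowest levels in preNeu as well, at 21.95 to 32.1 TPM against 64.7 to 104 in GMPs and 110 to 121 in matNeu. The small rises of Ctsl (0.63) and Ctss (0.56) from GMPs to matNeu were lost when some single libraries were left out (adjusted p = 0.0528 to 0.0629 for Ctsl, without GMP 3 or matNeu 2, and 0.0502 to 0.107 for Ctss, without GMP 2, GMP 3, matNeu 2 or matNeu 3).

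The carboxypeptidase Ctsz went down and stayed there. It read 944, 767 and 898 TPM in GMPs, 200, 238 and 210 in preNeu and 266, 205 and 240 in matNeu, so that the GMP libraries stood above all later ones and preNeu and matNeu overlapped. The change was -2.005 ± 0.13 from GMPs to preNeu (adjusted p = 8.31e-07), and 0.13 ± 0.13 from there to matNeu (adjusted p = 0.415; 0.60 and called higher under median-of-ratios scaling). Ctsb, a cysteine protease, was at 605 to 840 TPM there and at 253 to 389 in matNeu (-1.19, adjusted p = 9.81e-05). Its call as lower in matNeu than in GMPs turned to 0.19 with the other scaling, as did that of the tripeptidyl peptidase Tpp1, to 0.54, which was called higher (adjusted p = 0.00174). From preNeu to matNeu Tpp1 was not called, and called higher under that scaling (0.40, adjusted p = 0.0135). Tpp1 was also called lower in preNeu than in GMPs (-0.38), which turned to 0.15 under the other scaling and was lost without GMP 1, GMP 3 or any of the preNeu libraries (adjusted p = 0.0507 to 0.114). Ctsb at that step was not called (0.38), but was called higher under the other scaling (0.91, adjusted p = 0.000522), without matNeu 3 (adjusted p = 0.0282), and with only the GMP and preNeu libraries in the fit (0.0286). Ctsh lay between 164 and 247 TPM in the 9 libraries and was not called in any comparison of TPM as deposited. With median-of-ratios scaling it was called higher than in GMPs, by 0.69 in preNeu (adjusted p = 0.0029) and by 0.96 in matNeu (0.000154; -0.04 before), and its change from preNeu to matNeu turned to 0.27 without a call.

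Among the 6 glycosidases, 2 were higher and 3 lower in matNeu than in GMPs, and 1 was higher and 4 lower in preNeu than in GMPs. Under the other scaling the counts were 3 and 2, and 2 and 2. The shares of all tested genes were 22.8% higher and 54.1% lower in matNeu, and 14.7% and 44.3% in preNeu. Under that scaling they were 36.1% and 40.3%, and 23.5% and 27.6%. Naglu, which removes N-acetylglucosamine from heparan sulfate, read 50.8, 62.9 and 53.9 TPM in GMPs, 15.4, 18.002 and 17.9 in preNeu and 4.93, 7.15 and 3.11 in matNeu. Each stage lay below the one before it, and the change from GMPs to matNeu was -3.28 ± 0.25 (adjusted p = 4.04e-07). Gusb, the beta-glucuronidase, took the same order, with 324, 345 and 286, then 134, 137 and 175, then 87.3, 71.6 and 89.4 TPM. Its change from GMPs to matNeu was -1.93 ± 0.15 (adjusted p = 3.75e-07). Hexa, the alpha subunit of beta-hexosaminidase, was called lower in matNeu than in GMPs (-0.68), a direction that turned to 0.32 and a call as higher with median-of-ratios scaling (adjusted p = 0.0301), and its call as lower in preNeu (-0.75) was lost there (-0.22, adjusted p = 0.148). From preNeu to matNeu Hexa changed by 0.07 ± 0.12 (adjusted p = 0.632; 0.54 and called higher with median-of-ratios scaling).

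The alpha-mannosidase Man2b1 was at 270 to 313 TPM in GMPs and preNeu and at 797 to 934 in matNeu (1.58 from preNeu, adjusted p = 2.16e-07). Its change from GMPs to preNeu was -0.10 without a call, and 0.43 with a call under median-of-ratios scaling (adjusted p = 0.00253). The sialidase Neu1 rose at the earlier step, from 89.9 to 125 TPM in GMPs to 176 to 237 in preNeu (0.96, adjusted p = 0.000505), and lay at 192 to 243 in matNeu. The step to matNeu was not called, but was called higher under the other scaling (0.59, adjusted p = 0.00433). Gla, the alpha-galactosidase, was low, at 7.05 to 30.1 TPM, and its call as lower in preNeu (adjusted p = 0.0492) was lost without any 1 of 6 libraries, namely GMP 1, GMP 2, GMP 3, preNeu 2, preNeu 3 or matNeu 3 (adjusted p = 0.0501 to 0.168). Against GMPs, matNeu had -0.75 without a call, and -1.21 with one when matNeu 1 was left out (adjusted p = 0.00755). Under median-of-ratios scaling the first call was lost (-0.51, adjusted p = 0.338) and the second change turned to 0.19 without a call. The first was also lost with a pseudocount of 0.1 (adjusted p = 0.0622).

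Of the 8 genes of lipid handling and related soluble proteins, 7 were higher and 1, Grn, lower in matNeu than in preNeu, while 2 were higher and 5 lower in preNeu than in GMPs. With median-of-ratios scaling these counts were 7 and 0, and 2 and 3. The shares of all tested genes were 22.9% higher and 39.8% lower at the later step, and 14.7% and 44.3% at the earlier one. With that scaling they were 31.9% and 32.3%, and 23.5% and 27.6%. Plbd1 (chr6:136612070-136661928), a phospholipase B-like protein of myeloid granules, had the largest change of the 37. It read 2.41, 2.39 and 2.18 TPM in GMPs, 971, 931 and 1047 in preNeu and 1120, 1223 and 1339 in matNeu. The log2 change was 8.21 ± 0.11 from GMPs to preNeu (adjusted p = 2.56e-11) and 0.32 ± 0.11 from preNeu to matNeu (adjusted p = 0.0293). The second of these was lost without preNeu 1, preNeu 2, matNeu 2 or matNeu 3 (adjusted p = 0.0655 to 0.107).

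Psap, the precursor of the saposins that help sphingolipid hydrolases reach their substrates, was at 732 to 883 TPM in GMPs, 420 to 508 in preNeu, and matNeu had 1700 to 1901. No stage overlapped with another, and the change from preNeu to matNeu was 1.97 ± 0.11 (adjusted p = 9.06e-08). The acid lipase Lipa and the cholesterol exporter Npc1 were likewise lowest in preNeu, at 24.2 to 36.8 and 3.52 to 6.36 TPM. The fall of Npc1 from GMPs (-0.97) was lost without GMP 2 or preNeu 1 (adjusted p = 0.0514 to 0.0576) and under the other scaling (-0.49, adjusted p = 0.139). Under that scaling Lipa (1.22, adjusted p = 5.39e-05) and Npc1 (1.31, 0.000883) were called higher in matNeu than in GMPs, without a call before. The thioesterase Ppt1 stood at 115 to 169 TPM in GMPs and preNeu and at 367 to 477 in matNeu (1.76 from preNeu, adjusted p = 1.22e-06). It was not called between GMPs and preNeu, except lower without GMP 2 (-0.39, adjusted p = 0.0473), and this change turned to 0.26 without a call under median-of-ratios scaling.

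Npc2, the soluble partner of NPC1, had its highest level in GMPs, at 144 to 198 TPM, and was at 46.2 to 74.5 later. The fall to matNeu was -1.28, or -0.28 and not called with median-of-ratios scaling (adjusted p = 0.137), and its rise from preNeu to matNeu (0.42) was lost without preNeu 3, matNeu 2 or matNeu 3 (adjusted p = 0.052 to 0.0965). Grn, the progranulin gene, was highest in preNeu, at 404 to 487 TPM, against 239 to 270 in GMPs. Its step down to matNeu (-0.37) turned to 0.10 under the other scaling and lost its call without preNeu 3 or matNeu 1 (adjusted p = 0.0588 to 0.0736). The acid ceramidase Asah1 kept within 110 to 195 TPM in the 9 libraries. Its call as lower in preNeu than in GMPs turned to 0.14 under the other scaling and was lost when any 1 of 5 libraries was left out, the 3 of GMPs, preNeu 1 or preNeu 2 (adjusted p = 0.0553 to 0.143). The rise to matNeu (0.46) was lost without preNeu 1 or matNeu 3 (adjusted p = 0.0507 to 0.0673). From GMPs to matNeu it was called under that scaling (1.06, adjusted p = 1.84e-05) and not on TPM as deposited.

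Among the 7 membrane proteins, 3 were called higher and 0 lower in matNeu than in GMPs, and 2 were higher and 3 lower in preNeu than in GMPs. With median-of-ratios scaling these counts were 6 and 0, and 2 and 2. The shares of all tested genes were 22.8% higher and 54.1% lower in matNeu, and 14.7% and 44.3% in preNeu. With that scaling they were 36.1% and 40.3%, and 23.5% and 27.6%. Cd68, a heavily glycosylated LAMP-family protein used as a marker of mononuclear phagocytes, read 79.1, 51.5 and 55.8 TPM in GMPs, 21.3, 20.2 and 23.7 in preNeu and 232, 275 and 247 in matNeu. No 2 stages overlapped, and the change from preNeu to matNeu was 3.47 ± 0.17 (adjusted p = 3.21e-08), the largest of the 37 in that comparison. Markers of monocytes and macrophages moved beside it: the 8 on the list summed to 654 to 829 TPM in GMPs, 54.0 to 82.4 in preNeu, and matNeu had 344 to 463. In matNeu the sum came mostly from Csf1r, at 253 to 350 TPM, and Adgre1, at 75.7 to 97.0, while Ccr2, Cx3cr1, Ms4a6c and Ly86 were at 4.14 TPM or less. Their part in the levels of Cd68, Psap, Ctsl and Ctss was not tested. Eosinophil markers summed to 850 to 1096 TPM in GMPs and 33.6 to 52.2 later. In GMPs this sum came mostly from Prg2 and Epx, which fell, while Ccr3 was called higher later. Siglecf was called lower in preNeu and was not called between GMPs and matNeu. Basophil and mast cell markers were at 289 to 579 TPM before matNeu and at 1.34 to 12.5 in matNeu. Ctsz fell at the step to preNeu only, and Gusb and Naglu fell at both steps. The part of these cells in the levels of Ctsz, Gusb and Naglu was not tested either.

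The tetraspanin Cd63, which sits in primary granules and late endosomes, had the opposite course to Cd68. It read 196, 180 and 213 TPM in GMPs, 561, 498 and 398 in preNeu and 163, 185 and 132 in matNeu. The preNeu libraries stood above the rest, with a change of 1.29 ± 0.16 from GMPs (adjusted p = 6.14e-05) and -1.59 ± 0.16 to matNeu (adjusted p = 7.4e-06). From GMPs to matNeu it was -0.30 and not called, -0.41 and called without matNeu 2 (adjusted p = 0.048), but 0.70 and called higher with median-of-ratios scaling (adjusted p = 0.00771).

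Laptm5, a lysosomal transmembrane protein of blood cells, was at 755 to 837 TPM in preNeu and 1760 to 1896 in matNeu (1.22, adjusted p = 6.67e-07). Its fall from GMPs to preNeu (-0.38) turned to 0.15 under the other scaling. Scarb2, the receptor that delivers beta-glucocerebrosidase, was low at 14.4 to 37.2 TPM and lowest in preNeu (-0.95 from GMPs, adjusted p = 0.000452). From GMPs to matNeu it was called higher under the other scaling (1.20, adjusted p = 3.14e-05) and not on TPM as deposited. The structural glycoprotein Lamp2 lay between 257 and 434 TPM; its calls as higher than in GMPs (0.34 and 0.40) were lost without single libraries, at adjusted p = 0.0518 to 0.154 for matNeu (without GMP 2, GMP 3, preNeu 2, matNeu 2 or matNeu 3) and 0.0703 to 0.0909 for preNeu (without GMP 3 or preNeu 3). From preNeu to matNeu Lamp2 was not called, and called higher under median-of-ratios scaling (0.40, adjusted p = 0.0134).

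Lamp1, given here library by library after its values were seen, could not be read at the level of stages. The GMP libraries read 66.9, 228 and 652 TPM, the preNeu libraries 414, 424 and 480, and the matNeu libraries 99.8, 203 and 241. The change from GMPs to matNeu was -0.34 ± 0.64 (adjusted p = 0.637), and it turned to 0.65 without a call under median-of-ratios scaling, to 0.45 without GMP 3, to 0.04 without matNeu 1, and to -1.18 with a call without GMP 1 (adjusted p = 0.0283). From preNeu to matNeu it was -1.36 (adjusted p = 0.0866), called without GMP 1 or GMP 3 or with GMPs left out of the fit (adjusted p = 0.002), and from GMPs to preNeu 1.02 (adjusted p = 0.196), called without GMP 3.

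Mcoln1, a calcium channel of the lysosomal membrane, read 61.4, 93.1 and 69.6 TPM in GMPs, 53.6, 73.1 and 53.7 in preNeu and 53.2, 42.3 and 64.5 in matNeu. The stages overlapped and no comparison was called, with -0.48 ± 0.21 from GMPs to matNeu (adjusted p = 0.0595). This direction turned to 0.51 with a call under median-of-ratios scaling (adjusted p = 0.0313), where the other changes turned to 0.22 (GMPs to preNeu) and 0.29 (preNeu to matNeu) without a call, and it was called lower without GMP 1 or matNeu 3 (adjusted p = 0.0257 to 0.0339). Its promoter is that printed above beside Ctsd.

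The 6 genes of the V-ATPase moved apart from each other. From preNeu to matNeu 3 were higher and 2 lower, and from GMPs to preNeu 3 were higher and 0 lower. Under the other scaling the counts were 3 and 1, and 5 and 0. The shares of all tested genes were 22.9% higher and 39.8% lower at the later step, and 14.7% and 44.3% at the earlier one. Under that scaling they were 31.9% and 32.3%, and 23.5% and 27.6%. Atp6v1h, the regulatory H subunit of the cytosolic part of the pump, read 75.4, 102 and 89.2 TPM in GMPs, 66.3, 64.4 and 79.6 in preNeu and 23.5, 19.2 and 22.4 in matNeu. The matNeu libraries stood below the others, at -1.65 ± 0.16 from preNeu (adjusted p = 6.15e-06). From GMPs to preNeu it was -0.34 without a call, and turned to 0.19 without a call under median-of-ratios scaling. Atp6ap1, an accessory subunit, went the other way, from 281 to 355 TPM in preNeu to 719 to 800 in matNeu (1.29, adjusted p = 1.98e-06), as did the B2 subunit Atp6v1b2, from 270 to 337 to 491 to 570 TPM. Neither was called between GMPs and preNeu, and under the other scaling both directions turned and were called higher (Atp6ap1 0.41, adjusted p = 0.00386; Atp6v1b2 0.49, 0.00327).

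The catalytic A subunit Atp6v1a lay between 83.5 and 172 TPM and was lower in matNeu than in preNeu (-0.59), and not called with median-of-ratios scaling (-0.12, adjusted p = 0.497). From GMPs to matNeu it was not called, and turned to 0.89 with a call under that scaling (adjusted p = 0.000269). Atp6v0d1 rose in small steps, to 214 to 256 TPM in matNeu from 134 to 140 in GMPs (0.74, adjusted p = 8.86e-05). The calls of Atp6v1a, Atp6v0d1 and the membrane subunit Atp6v0c as higher in preNeu than in GMPs (0.33 to 0.48) were each lost without single libraries (without GMP 1, GMP 3, preNeu 2 or preNeu 3 for Atp6v1a, GMP 2, GMP 3 or preNeu 2 for Atp6v0d1, and GMP 2, GMP 3, preNeu 1 or preNeu 2 for Atp6v0c; adjusted p = 0.0519 to 0.103). Atp6v0c in matNeu against GMPs was not called (0.29, adjusted p = 0.0799), but was called higher without preNeu 3 (adjusted p = 0.0319), with only those groups in the fit (0.0405) and under median-of-ratios scaling (1.29, 4.01e-05). From preNeu to matNeu its direction turned to 0.35 without a call under that scaling.

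Both regulators rose at each step. Tfeb (chr17:47737030-47792419) read 4.24, 5.19 and 7.30 TPM in GMPs, 15.2, 19.5 and 12.5 in preNeu and 154, 143 and 120 in matNeu. No stage overlapped with another, and the changes were 1.35 ± 0.23 from GMPs to preNeu (adjusted p = 0.000472) and 3.08 ± 0.23 from preNeu to matNeu (6.65e-07). Tfe3 (chrX:7762560-7775202) read 20.0, 17.8 and 23.0, then 37.1, 42.6 and 45.4, then 87.4, 100 and 112 TPM. Its changes were 1.01 ± 0.16 (adjusted p = 0.000328) and 1.24 ± 0.16 (5.18e-05), again without overlap. The factors act mainly by entry into the nucleus, which RNA levels do not show.

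Of the 10 genes with CACGTG in the promoter, Ctsd, Ctsl, Plbd1 and Atp6v0d1 were called higher in matNeu than in GMPs and Naglu lower, when 22.8% of all tested genes were higher and 54.1% lower. Ctsa, Gla, Lamp1, Mcoln1 and Atp6v1a were not called. With median-of-ratios scaling Ctsa, Mcoln1 and Atp6v1a were called higher as well, which made 7 higher and 1 lower, when 36.1% of all tested genes were higher and 40.3% lower.

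**Figure D3:**
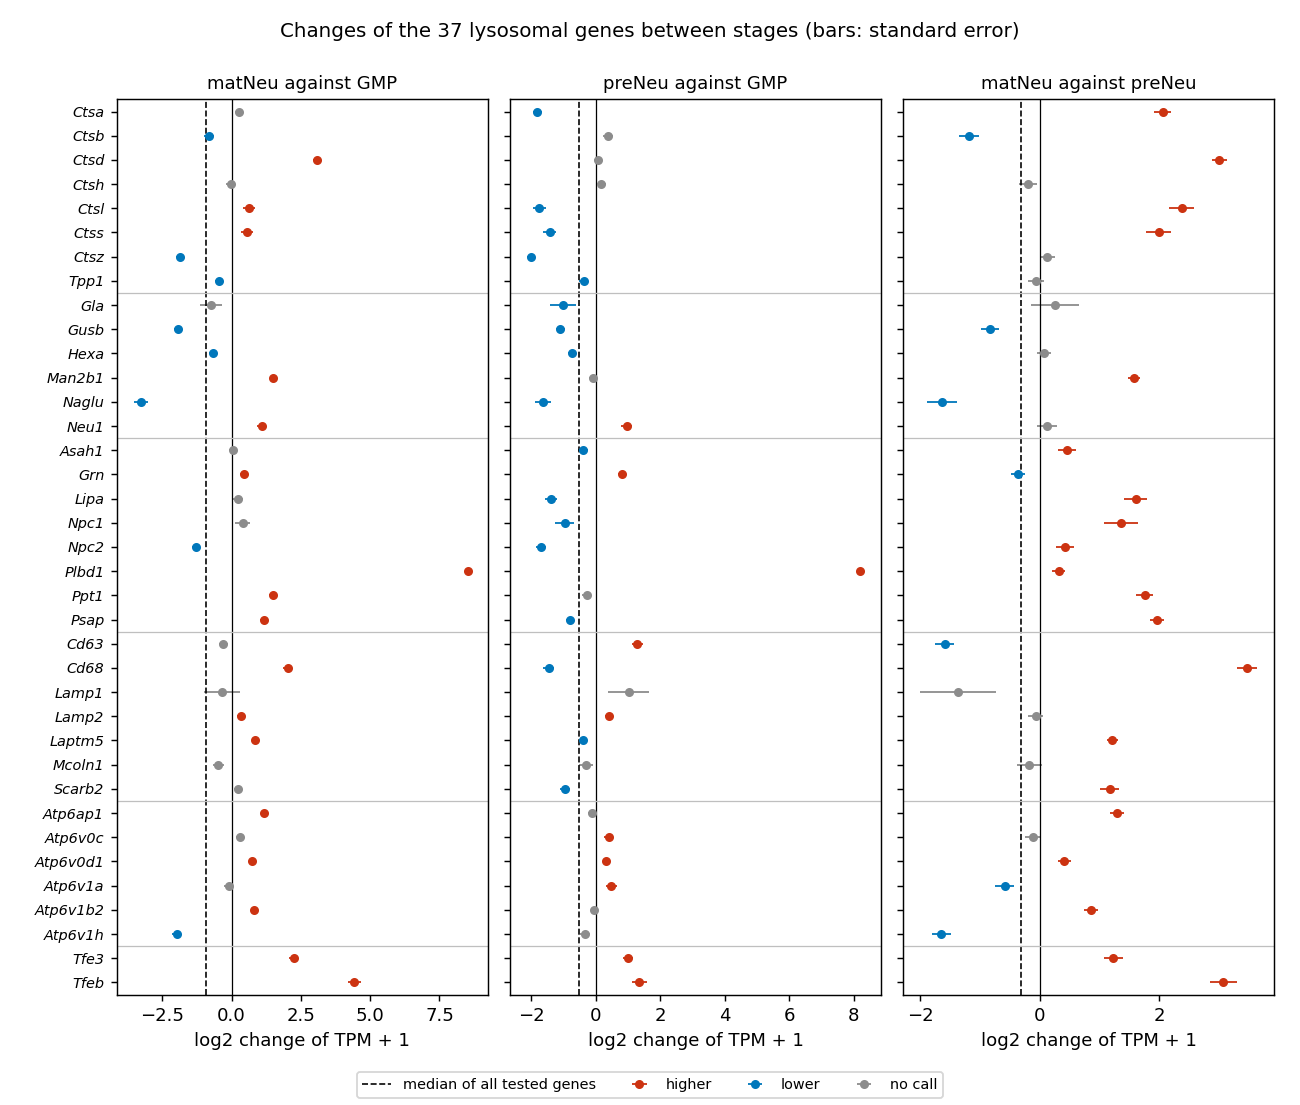
Log2 change of TPM + 1 for each of the 37 genes in the 3 comparisons, with standard errors; red marks were called higher, blue lower and grey not called at an adjusted p of 0.05, and the dashed line is the median of all 13061 tested genes. Plbd1 is the farthest mark in both comparisons with GMPs (8.52 and 8.21), Cd68 (3.47), Tfeb (3.08) and Ctsd (3.01) in matNeu against preNeu, and the bar of Lamp1 is the widest.

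The wider list of 89 lysosomal genes, chosen by function, had 85 that passed the filter. In matNeu against GMPs, 23 were higher and 47 lower (median -0.65), in preNeu against GMPs 15 and 42 (-0.45), and in matNeu against preNeu 24 and 31 (-0.25). These were 27.1% higher and 55.3% lower where all tested genes had 22.8% and 54.1%, 17.6% and 49.4% where they had 14.7% and 44.3%, and 28.2% and 36.5% where they had 22.9% and 39.8%, so the shares lay near those of all genes. With median-of-ratios scaling the counts were 39 and 31 (45.9% and 36.5%), 30 and 28 (35.3% and 32.9%), and 29 and 23 (34.1% and 27.1%). All tested genes then had 36.1% and 40.3%, 23.5% and 27.6%, and 31.9% and 32.3%. Of 33 further hydrolases tested, 8 were higher and 21 lower in matNeu than in GMPs (24.2% and 63.6%), or 13 and 15 with that scaling (39.4% and 45.5%). The 7 genes listed under enzyme sorting, most of which make, expose or read the mannose 6-phosphate tag, were all called lower in matNeu than in preNeu, with a median of -1.35, when 39.8% of all tested genes were lower. With median-of-ratios scaling 6 of the 7 were called lower (median -0.90), when 32.3% of all tested genes were.

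The genes of this list with the largest changes included another factor of the same family. Tfec read 149, 154 and 155 TPM in GMPs, 29.9, 25.3 and 32.6 in preNeu and 0.182, 0 and 0.226 in matNeu, a change of -7.09 ± 0.18 from GMPs to matNeu (adjusted p = 2.65e-10). The carboxypeptidase Cpq was also called lower, going from 80.2 to 103 TPM to 0.793 to 0.894. In the other direction, Litaf, a late endosomal membrane protein, went from 70.4 to 76.96 TPM in GMPs to 1117 to 1244 in matNeu (3.98 ± 0.10), and the aspartic protease Ctse from 8.79 to 10.3 to 95.4 to 147 (3.44 ± 0.23).

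At the step to preNeu, the serine carboxypeptidase Scpep1 (-4.04 ± 0.30) and the GM2 activator Gm2a (-3.58 ± 0.20) fell most, and the mannose 6-phosphate receptor Igf2r (3.60 ± 0.50) and the asparaginyl protease Lgmn (2.70 ± 0.41) rose most. Gm2a read 157, 159 and 160 TPM in GMPs, 12.0, 10.4 and 15.2 in preNeu and 279, 190 and 317 in matNeu, the same order of stages as for Ctsa and Psap.

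CHD4 peaks of WT GMPs touched the promoter, the 2 kb before and 500 bp after the gene start, of 9 of the 37 genes (24.3%, 95% Wilson interval 13.4 to 40.1%). Of the 11297 other protein-coding genes with at least 1 TPM in GMPs, 12.6% had such a peak (12.0 to 13.2%). The 9 were Ctsh, Ctsz, Hexa, Asah1, Grn, Lipa, Npc2, Plbd1 and Atp6v1b2. In Gfi1-/- GMPs 0 of the 37 promoters had a CHD4 peak, with an upper bound of 9.41%, beside 2.25% of the other expressed genes. With 1 library per genotype, the intervals cover counting error only, and no test was made. The other expressed genes were not matched to the 37 for RNA level. The lists differ in length, at 35790 peaks in WT and 7316 in Gfi1-/- GMPs, and when the WT list was cut to its best 7316 peaks by q-value, it too had 0 of 37 promoters. Of all other protein-coding genes, expressed or not, 2.07% had a promoter peak in the cut list and 8.56% in the full list. The difference between genotypes at these promoters can therefore not be told apart from a difference in the depth or enrichment of the libraries.

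Within 10 kb of the gene, 20 of the 37 genes (54.1%) had at least 1 CHD4 peak in WT GMPs and 4 (10.8%) in Gfi1-/- GMPs, compared with 42.8% and 13.9% of the other expressed genes. The 20 genes had 68 distinct WT peaks, of which 4 overlapped a peak of Gfi1-/- GMPs, at Psap, Asah1, Npc2 and Cd63. The same share over all 35790 WT peaks was not computed, and the Gfi1-/- list holds only 7316. The overlap is therefore no trait of these genes that could be read here. By the place of the summit, 39 of the 68 lay in an intron, 1 in a coding exon and 3 in a UTR exon. Neither Tfeb nor Tfe3 had a CHD4 peak in this window, and Ctsd had 2, both upstream, at -2439 and -6401 bp from the start, with fold enrichments over background of 7.72 and 7.14.

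The strongest site lay in an intron of Plbd1, 7205 bp from the start, at chr6:136654377-136654981, with a fold enrichment of 27.8. Plbd1 had 6 CHD4 peaks in WT GMPs and none in Gfi1-/- GMPs. The next strongest gene was Psap, with 8 peaks, the highest of them in an intron at chr10:60286466-60287031 with a fold of 20.9. This one was kept in Gfi1-/- GMPs, with a fold of 8.32. As at the promoters, a lost site cannot be told apart from a difference in the depth or enrichment of the libraries. The 200 bases around both summits are shown because one site was kept and the other was not; the letters are from the plus strand of GRCm38, at chr6:136654623-136654822 and chr10:60286667-60286866, and the capital marks the summit.
Plbd1: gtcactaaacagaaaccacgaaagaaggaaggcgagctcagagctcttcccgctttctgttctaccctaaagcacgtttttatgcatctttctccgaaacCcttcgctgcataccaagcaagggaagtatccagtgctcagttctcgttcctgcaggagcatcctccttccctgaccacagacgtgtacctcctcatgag
Psap: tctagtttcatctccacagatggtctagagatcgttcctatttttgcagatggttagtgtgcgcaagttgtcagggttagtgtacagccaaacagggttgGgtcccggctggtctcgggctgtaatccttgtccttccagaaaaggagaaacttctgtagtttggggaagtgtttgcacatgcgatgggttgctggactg
Neither window held the exact words AAATCA, part of the GFI1 site, or GAGGAAGT, a word of ETS-family sites, on either strand. Shorter or variant forms of these sites were not searched, so the windows may still hold such sites. Over the 68 sites, AAATCA was present in 3 windows of this length (4.41%) and GAGGAAGT in 7 (10.3%), and over the other 35660 WT CHD4 sites in 12.1% and 11.8%.

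The remaining strong sites were at Npc2 (fold 17.5, outside the gene), Hexa (15.98, intron), Ctsh (14.6, in the exon at the start), Atp6v1b2 (14.6, at -6227 bp from the start) and Asah1 (14.5, at -17 bp). Atp6v1b2, like Psap, had 8 peaks. From GMPs to preNeu, Plbd1 was called higher, Psap, Npc2, Hexa and Asah1 lower, and Ctsh and Atp6v1b2 were not called. With median-of-ratios scaling Plbd1, Ctsh and Atp6v1b2 were called higher, Psap and Npc2 lower, and Hexa and Asah1 were not called.

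**Figure D4:**
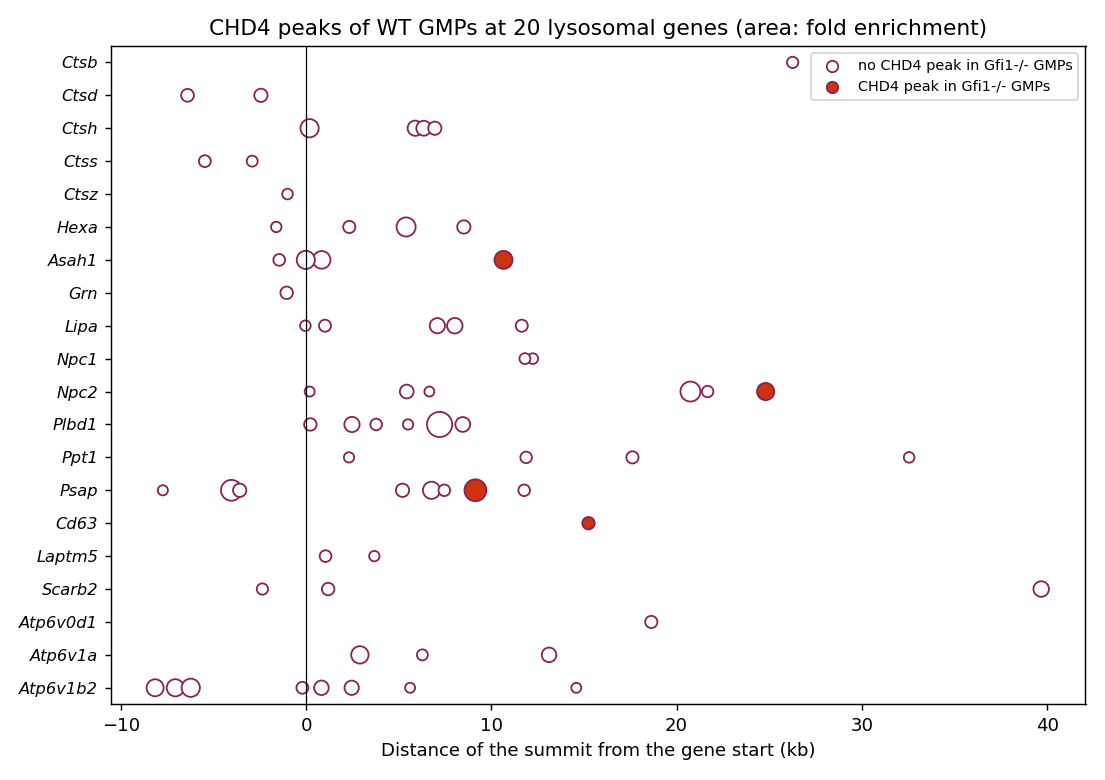
CHD4 peaks of WT GMPs within 10 kb of 20 of the lysosomal genes, placed by the distance of the summit from the gene start in kb (negative: upstream); the area of a circle is the fold enrichment, and filled circles overlap a CHD4 peak of Gfi1-/- GMPs. Of the 68 circles 4 are filled, and the largest, in Plbd1 with a fold of 27.8, is open.

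H3K4me2 peaks lay at the promoter of 34 of the 37 genes in GMPs, 36 in preNeu and 36 in matNeu. Of the other protein-coding genes with at least 1 TPM in the same stage, 88.9%, 92.0% and 88.5% had one. Lamp2, Cd68 and Atp6v1h had no promoter peak in GMPs, and Atp6v1h none at the later stages, at the outermost annotated start of the gene. In matNeu and preNeu all 37 had a peak when every annotated protein-coding transcript start was used. Of all other protein-coding genes, expressed or not, 59.4% and 61.8% then had one. The count in GMPs was 16 with peaks of −log10 q-value 5 or more, where those other genes went from 59.3% to 25.5%.

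Where a promoter peak was present, its median width was 2130.5 bp in GMPs, 4718.5 in preNeu and 4291.5 in matNeu, compared with 2239, 3486 and 2789.5 bp over the other expressed genes. The lists cover 49.8, 97.9 and 80.4 Mb, so that a wider peak in a later stage is common to most genes and each value is set beside its own background. The peak was wider in preNeu than in GMPs at 34 of the 37 genes (91.9%), beside 85.1% of 8850 other genes expressed in the 3 stages. It was wider in matNeu than in preNeu at 15 (40.5%), beside 17.02%, and wider in matNeu than in GMPs at 34 (91.9%), beside 64.4%. With 1 library per stage these are descriptions, and the other genes were not matched to the 37 for RNA level.

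The widest peaks were at Hexa, with 7787 bp in GMPs, 19707 in preNeu and 20430 in matNeu, and at Ctsd, with 2764, 15875 and 19886 bp. At Ctsd the mark covered 17.6% of the gene and the 10 kb on either side in GMPs, 55.1% in preNeu and 68.2% in matNeu. It was wide in preNeu, where Ctsd RNA overlapped with GMPs. At Plbd1 the width was 1109, 10772 and 12905 bp, and the gene rose at the first step. Psap had 5690, 8910 and 11070 bp, with its RNA lowest in preNeu.

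Among the membrane proteins, Cd68 had no promoter peak in GMPs, 7390 bp in preNeu and 5736 bp in matNeu, although its RNA was lower in preNeu than in GMPs. The Cd63 peak was 367, 5278 and 3424 bp wide, the order of its RNA in preNeu and matNeu. This peak was taken at the outermost annotated start, with the promoter at chr10:128898989-128901489. The E-box search used another Cd63 promoter, at chr10:128909095-128909394, where the width was not measured. Naglu, which fell throughout, had 1538, 2108 and 1588 bp. At the regulators, Tfeb had 2921, 3183 and 3273 bp and Tfe3 1520, 4784 and 4330 bp. The share of the Tfeb locus under the mark was 13.5, 21.7 and 24.9%.

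**Figure D5:**
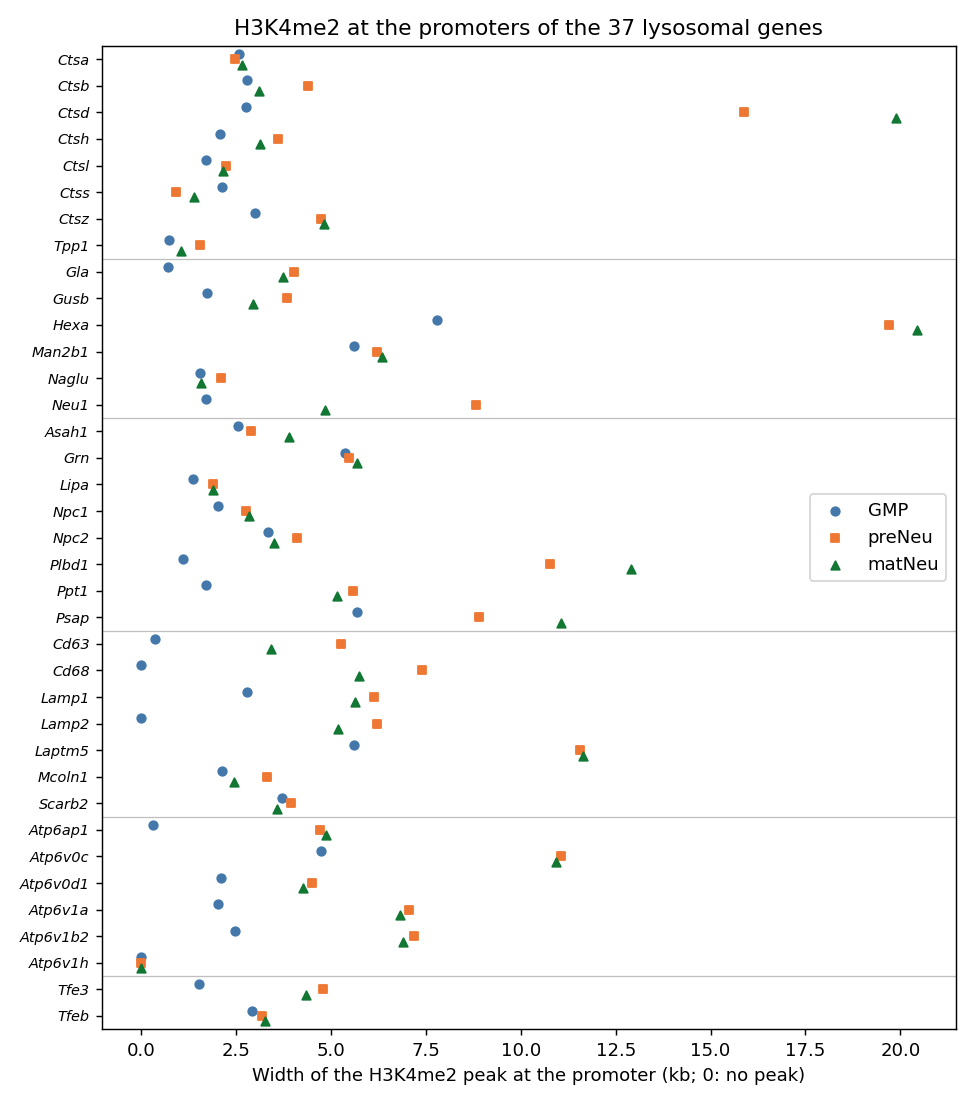
Width in kb of the H3K4me2 peak at the promoter of each of the 37 genes in GMP, preNeu and matNeu cells (1 library each; 0: no peak). Ctsd, Hexa, Plbd1 and Psap widen from GMPs to matNeu, and most of the other genes are wider in preNeu and matNeu than in GMPs.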

How the data were processed

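The values come from 9 RNA-seq libraries, 3 for each of GMP, preNeu and matNeu, and from peak lists of CHD4 and H3K4me2 (1 library each). TPM values for each gene are those the authors deposited; the submitters' processing notes name kallisto 0.44.0, BWA 0.7.17, MACS2 2.1.0 and mm10 without roles, while the labels describe TopHat, HTSeq and DESeq. TPM keeps no depth, so the depth is unknown and no count test was used. The deposited peak lists give a fold enrichment (a linear ratio) and a −log10 q-value per peak. Lists of H3K4me3 and GFI1, with 2179 of 20218 and 3105 of 26963 peaks beyond the GRCm38 chromosome ends, and of ATAC-seq, identical for both stages in 16307 of 16307 peaks, were not used. No column was left unused (0).

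Genes that reached 1 TPM in 3 or more libraries were fitted with limma 3.58.1 (R 4.3.3) on log2(TPM + 1), over all 9 libraries, with the stage as sole factor, a variance trend and Benjamini-Hochberg adjustment at 0.05. An exact permutation test of 3 against 3 cannot go below p = 0.1. On data simulated for matNeu against GMP over 13061 genes, 88 of 100 changes of 2 (log2) and 41 of 100 of 1 were recovered, with 9 false among 138 calls. Peaks were placed with Python 3.11.15 on GENCODE M21 genes (overlap of at least 1 bp) and sequences read from RefSeq GRCm38.p6 with samtools 1.23.1; intervals are 95% Wilson. All 37 genes were described, with values per library for the 3 largest called changes each way per comparison and for Tfeb, Tfe3 and Mcoln1, and the 2 other lysosomal genes with the largest change each way. A gene that this rule names is not reported here. The genes and lists were chosen with earlier results of these data known. Alternatives are given in the closing section.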

Additional observations from a re-analysis of the deposited data

How the results depend on the processing

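The counts of called lysosomal genes stayed within 1.5 times of those reported under a pseudocount of 0.1, other filters, median-of-ratios scaling, a fit of the compared groups alone, no variance trend and the replicate block. Single calls were lost all the same, 12 without a variance trend and 5 without the TPM filter (adjusted p = 0.0509 to 0.101). Without the trend these were Lamp2 in matNeu against GMP, and Grn, Asah1, Npc2 and Plbd1 in matNeu against preNeu. In preNeu against GMP they were Tpp1, Gla, Asah1, Lamp2, Atp6v0d1, Atp6v1a and Atp6v0c. Without the filter they were Ctss and Lamp2 in matNeu against GMP and Gla, Asah1 and Atp6v0c in preNeu against GMP. With a minimum log2 change of 1 they were 15 in matNeu against GMP and 14 in preNeu against GMP. Leaving out each library in turn gave 22 to 27 calls in matNeu against GMP, 21 to 27 in preNeu against GMP and 24 to 28 in matNeu against preNeu.

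Deviations from the stage means correlated at -0.0394 to 0.123 between same-numbered libraries and at -0.128 to 0.0706 between the others. Such correlations cannot decide whether the numbers mark shared animals. With the replicate number as a block, 24, 28 and 28 of the 37 genes were called in these comparisons, in the same order, against 25, 27 and 27. It changed the call of Lamp2 in matNeu against GMP (lost, adjusted p = 0.0604), Ctsb in preNeu against GMP (gained, 0.028) and Lamp1 in matNeu against preNeu (gained, 0.0253).

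Median-of-ratios scaling reversed 24 directions, some of called changes; the cause was not tested beyond the shift of the all-gene medians given in the report. In matNeu against GMP these were Ctsb (0.19), Ctsh (0.96), Tpp1 (0.54), Hexa (0.32), Gla (0.19), Lamp1 (0.65), Cd63 (0.70), Mcoln1 (0.51) and Atp6v1a (0.89). In preNeu against GMP they were Tpp1 (0.15), Man2b1 (0.43), Asah1 (0.14), Ppt1 (0.26), Mcoln1 (0.22), Laptm5 (0.15), Atp6v1b2 (0.49), Atp6v1h (0.19) and Atp6ap1 (0.41). In matNeu against preNeu they were Ctsh (0.27), Tpp1 (0.40), Grn (0.10), Lamp2 (0.40), Mcoln1 (0.29) and Atp6v0c (0.35).

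Without a single library, the direction turned for genes that were not called. In matNeu against GMP this was so for Ctsh (-0.17 to 0.13), Lamp1 (-1.18 to 0.45) and Atp6v1a (-0.20 to 0.011). In matNeu against preNeu it was so for Gla (-0.19 to 0.57), Tpp1 (-0.14 to 0.028) and Hexa (-0.0076 to 0.14), and in preNeu against GMP for Atp6v1b2 (-0.13 to 0.026) and Ctsd (-0.059 to 0.19).

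Of the 37 promoters, 0 had a CHD4 peak in WT GMPs when as many WT peaks as Gfi1-/- peaks were used, against 9. All other protein-coding genes went from 8.56% to 2.07%. H3K4me2 peaks were found at 16 in GMPs with peaks of −log10 q-value 5 or more, where the other genes went from 59.3% to 25.5%. With an overlap of at least 50% they were found at 24 in GMPs, 27 in preNeu and 22 in matNeu. The other genes then had 46.3, 50.2 and 46.8%, against 59.3, 59.3 and 56.8%. With promoters of all protein-coding transcripts, chosen after seeing the data, they were found at 37 in preNeu and 37 in matNeu. The other genes then had 61.8% and 59.4%. The causes of these differences between the lists were not tested. The depth behind TPM values and peaks is unknown and sets no limit that could be computed here.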
